A study of Mus musculus with 4 samples.

Results

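The 34 genes described here are 17 that copy DNA in S phase and 17 that act when the nucleus divides. They were taken by name from the gene list of the deposited matrices, and all 34 were among the 31053 genes counted in each library. The list was set with earlier results of these data known. The data are joint profiles of nuclear RNA and open chromatin from the same nuclei (10x multiome), in which RNA molecules are counted by unique molecular identifiers (UMIs). GFP+ alveolar type 2 (AT2) cells were sorted from lungs of male mice 8 days after lung injury with bleomycin. The library labelled CKO came from mice with SftpcCreERT2, Rosa26mTmG and IPF/F. The control library came from mice with SftpcCreERT2 and Rosa26mTmG alone. SftpcCreERT2 is a tamoxifen-inducible Cre at the surfactant protein C gene, Rosa26mTmG is a reporter whose membrane colour changes to green after recombination, and IPF/F is read here as floxed alleles of Ptgir, the prostacyclin receptor gene that the series title points to. There was 1 library per genotype, so replicates are missing and differences between genotypes were not tested. The labels give neither the number of mice behind a library nor their age.

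Before S phase the ring-shaped Mcm helicase is loaded on replication origins with the help of Cdc6, and it starts to unwind DNA with Cdc45 and the GINS complex. Polymerase alpha then primes synthesis, the clamp protein Pcna holds the polymerases on the template, and ribonucleotide reductase and thymidylate synthase supply the nucleotides. Replication genes are switched on when cells enter S phase, many of them through E2F sites. Mitosis genes follow later in the cycle and are repressed in resting cells through a promoter element called CHR, often together with CCAAT boxes. AT2 cells make surfactant, and after injury they divide and replace the flat alveolar type 1 (AT1) cells.

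Promoter letters set the gene groups apart in this way. RefSeq promoter windows (GRCm38.p6, 250 bases before to 50 after a gene start) were found for 31 of the 34 genes, 15 of replication and 16 of mitosis. The CHR letters TTTGAA, searched on both strands, stood in 12 of the 16 mitosis promoters, in 2 of the 15 replication promoters and in 18.1% of 27025 promoters of all genes. CCAAT stood in 12 of 16 mitosis promoters and 12 of 15 replication promoters, against 37.8% of all promoters. CHR and CCAAT stood together in 9 of 16 mitosis promoters and 2 of 15 replication promoters, against 7.01% of all. E2F letters (TTTGGCG or its variant TTTCCCG, its variant TTTGCCG or its variant TTTCGCG, either strand) stood in 3 of 16 mitosis promoters and 6 of 15 replication promoters, against 6.77% of all. A match of letters is a description and does not show that a factor binds. Stretches of 150 bases just before the gene are shown for 3 mitosis genes and 2 replication genes. The 3 hold CHR letters and the 2 hold E2F letters, which most stretches of their groups did not. For example, the Ccnb1, Ccnb2, Bub1 and Cenpf stretches held no CHR letters, and those of Rrm1, Rrm2 and Slbp no E2F letters. The Mcm2 stretch, of a replication gene, held CHR letters. Capitals mark CHR, CCAAT and E2F letters on either strand (TTCAAA and ATTGG are CHR and CCAAT read from the other strand), and E2F letters on opposite strands can overlap. The stretches lie at chr7:135716451-135716600 (minus strand), chr11:99024200-99024349 (minus strand), chr10:69352913-69353062 (minus strand), chr1:128359706-128359855 (minus strand) and chr8:75109318-75109467 (plus strand), and peaks of both libraries covered part of each.
Mki67: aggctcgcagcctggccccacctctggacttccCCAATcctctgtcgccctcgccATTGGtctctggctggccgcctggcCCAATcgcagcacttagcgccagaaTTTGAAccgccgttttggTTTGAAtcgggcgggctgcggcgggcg
Top2a: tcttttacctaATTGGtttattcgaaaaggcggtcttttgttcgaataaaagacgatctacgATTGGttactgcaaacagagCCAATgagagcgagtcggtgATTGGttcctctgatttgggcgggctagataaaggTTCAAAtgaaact
Cdk1: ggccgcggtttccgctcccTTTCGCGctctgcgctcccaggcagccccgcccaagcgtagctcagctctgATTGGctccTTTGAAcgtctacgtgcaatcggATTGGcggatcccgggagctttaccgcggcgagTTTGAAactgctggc
Mcm6: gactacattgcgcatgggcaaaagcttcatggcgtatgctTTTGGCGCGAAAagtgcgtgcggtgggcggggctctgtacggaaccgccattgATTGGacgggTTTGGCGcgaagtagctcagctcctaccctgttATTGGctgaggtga
Mcm5: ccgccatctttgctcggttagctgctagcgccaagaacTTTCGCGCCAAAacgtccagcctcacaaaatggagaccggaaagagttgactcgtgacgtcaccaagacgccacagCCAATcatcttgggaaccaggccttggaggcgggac
The Mki67, Top2a and Cdk1 stretches held CHR letters and CCAAT boxes, Cdk1 E2F letters as well, and the Mcm6 and Mcm5 stretches held E2F letters and CCAAT boxes but no CHR letters.

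In all, 30818808 UMIs over 10925 barcodes were deposited for the library labelled CKO, and 48378328 UMIs over 13569 barcodes for control. After filtering, 3883 and 2173 nuclei were kept, with medians of 2402 and 2088 UMIs, and 17 kept barcodes occurred in both libraries. Clusters were made without the 34 genes and without other cell cycle genes, and named from marker lists. Alveolar nuclei (AT2-like, transitional-like between AT2 and AT1, and AT1-like) numbered 2318 in the library labelled CKO, against 2049 in control, and immune nuclei 1323 and 103. None of the 13 AT2 markers was at 0 in alveolar nuclei, and their sum was 12507 CPM in the library labelled CKO and 9740 CPM in control, where CPM is UMIs per 1000000 nuclear-encoded UMIs of the nuclei compared. AT2 marker RNA was also high in nuclei of other types, at 6263 CPM in T and NK-like, 6134 CPM in macrophage and monocyte-like and 10163 CPM in neutrophil-like nuclei of the library labelled CKO. The part of such free RNA in the values below was not tested, and neutrophil-like nuclei serve as the background. AT2-like nuclei lay mainly in different clusters, 1117 of 1201 from the library labelled CKO in a cluster with 131 control nuclei. The targeted gene Ptgir had 1 alveolar UMI in the library labelled CKO, against 0 in control, and 10 and 2 UMIs over all deposited barcodes, a direction that goes against the label. Which exon was removed is not in the labels, so each direction below rests on the label alone. Intervals are 95% intervals for counting error and do not cover variation between mice.

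Neither gene group was raised as a whole in alveolar nuclei of the library labelled CKO, while most other genes had a higher share of UMIs there. The 17 replication members summed to 210.4 CPM (1400 UMIs) in the library labelled CKO and 243 CPM (1447 UMIs) in control, a log2 ratio of -0.21 (-0.31 to -0.10). The 17 mitosis members summed to 96.8 CPM (644 UMIs) in the library labelled CKO and 110.1 CPM (656 UMIs) in control, a log2 ratio of -0.19 (-0.35 to -0.03). The median gene of 13647 with at least 20 UMIs over both libraries had a log2 ratio of 0.47, so both sums lay further below the typical gene than below 0. Under median-of-ratios scaling, which lowers every ratio by 0.44, they were -0.65 and -0.63. Of the AT2-like clusters, 2 held 84 nuclei of the library labelled CKO and 1427 of control. Without them the replication difference over all alveolar nuclei was gone (0.0059). Within the AT2-like nuclei left, with 131 of control, the replication ratio was -0.44 (-0.73 to -0.14). The mitosis ratio over all alveolar nuclei turned to 0.14 without the few nuclei rich in mitosis RNA described below. In bulk sums of this kind, fewer cells with a gene on and less RNA per cell cannot be told apart.

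Helicase genes differed from each other in direction. Mcm2, a subunit of the Mcm helicase, had 38 UMIs (5.71 CPM) in the library labelled CKO and 14 UMIs (2.35 CPM) in control, a log2 ratio of 1.28 (0.36 to 2.28). Cdc6, the loader that places the helicase on origins, had 13 UMIs (1.95 CPM) in the library labelled CKO and 40 UMIs (6.71 CPM) in control, a log2 ratio of -1.78 (-2.81 to -0.85). These were the only members measured with at least 20 UMIs whose ratio passed 2-fold, 1 of 17 replication members higher and 1 of 17 lower, against 17.6% of all genes measured at least 2-fold higher and 3.11% at least 2-fold lower. Mcm2 did not pass 2-fold without the mitochondrial limit (0.69), with no filter on nuclei (0.67), without the 2 AT2-like clusters of mostly control nuclei (0.52) or under median-of-ratios scaling (0.84), and Cdc6 did not with no filter (-0.78). None of 16 mitosis members measured passed 2-fold in either direction. Gins2, a subunit of the GINS complex that activates the helicase, had 36 UMIs (5.41 CPM) in the library labelled CKO and 17 (2.85 CPM) in control, a log2 ratio of 0.92 (0.05 to 1.85). Mcm4 had a ratio of 0.63 (-0.01 to 1.29) and Mcm3 of 0.49 (-0.54 to 1.57), Mcm7 of 0.31 and Mcm6 of 0.0031, whereas Mcm5 had -0.40 (-1.07 to 0.25) and Cdc45, which joins the helicase when it starts, -0.69 (-1.64 to 0.23). Mcm6 is the best counted of these, with 122 UMIs (18.3 CPM) in the library labelled CKO and 109 (18.3 CPM) in control, so this subunit was at the same level in both libraries within a log2 interval of -0.38 to 0.39. Subunits of 1 complex thus ranged from 1.28 for Mcm2 to -0.40 for Mcm5, with few UMIs behind either end. Under median-of-ratios scaling Mcm6 and Mcm7 were below 0.

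Of 5 genes of the polymerase step, chromatin upkeep and histone mRNA, none passed 2-fold, and 3 had intervals below 0. Of all 13647 genes measured, 1325 had intervals below 0. Pola1, the catalytic subunit of polymerase alpha, had 290 UMIs (43.6 CPM) in the library labelled CKO and 379 (63.6 CPM) in control, a log2 ratio of -0.55 (-0.77 to -0.32). Pcna, the sliding clamp, had 160 UMIs (24.0 CPM) in the library labelled CKO and 210 (35.3 CPM) in control, a ratio of -0.55 (-0.86 to -0.25), which turned to 0.14 without the 2 AT2-like clusters of mostly control nuclei. Hells, a chromatin remodeller needed for DNA methylation, had 88 UMIs (13.2 CPM) in the library labelled CKO and 141 (23.7 CPM) in control, a ratio of -0.84 (-1.24 to -0.45). Without those clusters the Pola1 ratio was -0.0014 (-0.35 to 0.36), so the differences of Pola1 and Pcna both ended there, and that of Hells was -0.62 (-1.19 to -0.036). Uhrf1, which guides the maintenance DNA methyltransferase to new strands, had 22 UMIs in the library labelled CKO, against 28 in control (-0.51, interval -1.38 to 0.35). Slbp, which binds the stem-loop of histone mRNAs, was level, with 177 UMIs (26.6 CPM) in the library labelled CKO and 151 (25.3 CPM) in control (0.07, interval -0.25 to 0.39).

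Of the nucleotide supply genes, Tyms had an interval above 0, as did 7242 of all 13647 genes measured, and the others did not. The Tyms ratio lay near the median of all genes, 0.47. Tyms, thymidylate synthase, had 95 UMIs (14.3 CPM) in the library labelled CKO and 59 (9.90 CPM) in control, a log2 ratio of 0.53 (0.04 to 1.02). Rrm2, the subunit of ribonucleotide reductase that is made mainly in S phase, had 15 UMIs (2.25 CPM) in the library labelled CKO and 8 (1.34 CPM) in control (0.75, interval -0.58 to 2.19). Rrm1, its partner, which is long-lived and less tied to the cycle, had 115 UMIs (17.3 CPM) in the library labelled CKO and 105 (17.6 CPM) in control (-0.03, interval -0.42 to 0.37). Mcm2, Mcm4, Gins2, Rrm2 and Tyms were above 0 under all 10 alternatives run for single genes and Cdc6 and Hells below 0. Pola1 was below 0 as well but at 0 within counting error without the clusters of mostly control nuclei, and the sign of the other 9 replication members turned under at least 1 of them.

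Mitosis members lay close together and mostly a little below 0. Their median log2 ratio was -0.22, with 11 of 16 measured members below 0 and 15 of 16 below the median of all genes. Of all 13647 genes measured, 3010 were below 0. The replication members had a median of 0.0031, with 8 of 17 below 0 and 11 of 17 below the median of all genes. Cenpe, the kinesin that carries chromosomes to the spindle equator, was lowest, with 35 UMIs (5.26 CPM) in the library labelled CKO and 57 (9.57 CPM) in control, a log2 ratio of -0.86 (-1.51 to -0.23). With no filter on nuclei the Cenpe ratio was -0.21 (-0.63 to 0.19), an interval that includes 0. Mki67, the Ki-67 protein that coats mitotic chromosomes, had 65 UMIs (9.77 CPM) in the library labelled CKO and 68 (11.4 CPM) in control, a ratio of -0.22 (-0.74 to 0.29). Top2a, the topoisomerase that untangles sister chromatids, had 65 UMIs (9.77 CPM) in the library labelled CKO and 53 (8.90 CPM) in control, a ratio of 0.14 (-0.41 to 0.69). On the CPM scale these usual markers of dividing cells did not differ between the libraries beyond counting error. Under median-of-ratios scaling Mki67 was at -0.67 (-1.18 to -0.15), and Top2a turned below 0.

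The kinetochore and checkpoint genes gave ratios of 0.12 for Bub1, -0.54 for Bub1b, -0.35 for Knl1 and 0.03 for Cenpf. Bub1 and Bub1b delay anaphase until chromosomes are attached, Knl1 is the kinetochore scaffold they bind, and Cenpf links the kinetochore to motors. The spindle genes gave -0.21 for Kif11, the kinesin that pushes the spindle poles apart, -0.32 for Tpx2, which starts microtubules near chromosomes, and -0.63 for Aspm, which works at the spindle poles. Nusap1, which bundles spindle microtubules, had -0.56, and Kif20b, a kinesin of late mitosis, had -0.19. On the CPM scale each of these 9 intervals included 0. Under median-of-ratios scaling the intervals of Bub1b, Knl1, Tpx2, Aspm, Nusap1 and Kif20b lay below 0, that of Kif20b barely. Those of Bub1, Cenpf and Kif11 still included 0. Anln, the anillin scaffold of the cleavage furrow, had 66 UMIs in the library labelled CKO, against 54 in control (0.13, interval -0.41 to 0.68).

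The kinase and cyclin genes were thinly counted. Cdk1, the kinase that drives entry into mitosis, had 20 UMIs in the library labelled CKO, against 11 in control (0.70, interval -0.43 to 1.91). Its partner Ccnb2 had 32 UMIs in the library labelled CKO, against 33 in control (-0.20, interval -0.95 to 0.54), and Ube2c, a ubiquitin-conjugating enzyme that helps end mitosis, had 10 and 15 UMIs (-0.74, interval -2.06 to 0.51). Ccnb1, the other partner of Cdk1, had 12 UMIs in the library labelled CKO, against 2 in control and was left out of the counts above, a ratio of 5.37-fold with a log2 interval of 0.26 to 5.63. Aspm, Bub1b, Cenpe, Knl1, Mki67, Nusap1 and Ube2c were below 0 under every alternative run and Ccnb1 above 0, and the other 9 mitosis members turned sign under at least 1. Under median-of-ratios scaling Slbp, Bub1, Cenpf, Top2a and Anln turned below 0 as well.

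**Figure D1:**
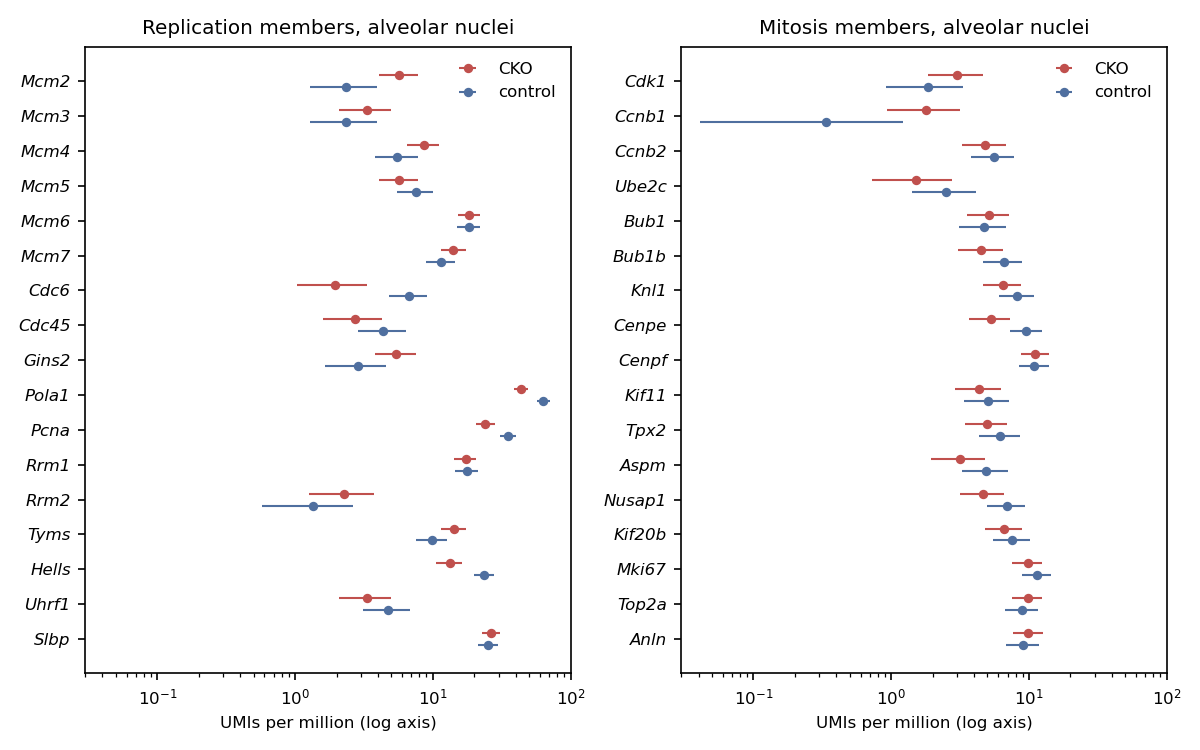
CPM of each of the 34 genes over alveolar nuclei, for the library labelled CKO and for control (log axis), with Poisson 95% intervals for counting error. Cdc6, Pola1 and Hells lie lower in the library labelled CKO (13, 290 and 88 UMIs, against 40, 379 and 141 in control), Mcm2 lies higher (38 UMIs against 14), and most mitosis intervals overlap widely.

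Per kilobase of RefSeq gene span, introns included because nuclear RNA holds them, the replication members had a median of 0.383 CPM per kb in the library labelled CKO, against 0.398 in control, and the mitosis members 0.161 and 0.151. Pcna had the highest level on this scale, 6.17 CPM per kb in the library labelled CKO, against 9.05 in control. Next came Slbp with 2.12 in the library labelled CKO, against 2.02 in control and Mcm7 with 1.88 and 1.52. Among the mitosis members Ube2c was highest, at 0.505 CPM per kb in the library labelled CKO, against 0.847 in control, and Mki67 had 0.366 and 0.428. Pola1, the replication gene with most UMIs, has a span of 328 kb and was at 0.133 CPM per kb in the library labelled CKO, against 0.194 in control. Some members share bases with another gene at their ends (Mcm7 with Ap4m1, Cdc45 with Ufd1, Gins2 with Gse1, Nusap1 with Oip5 and Anln with 9530077C05Rik), and how the authors' counting assigned such reads is not given in the sources used here.

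By alveolar state, replication RNA was higher in transitional-like than in AT2-like nuclei of the library labelled CKO and lower in control. In AT2-like nuclei the replication sum was 201 CPM in the library labelled CKO and 261 CPM in control, a log2 ratio of -0.38 (-0.52 to -0.23). In transitional-like nuclei it was 246 CPM in the library labelled CKO and 197 CPM in control, a ratio of 0.32 (0.07 to 0.59), and in AT1-like nuclei 193 CPM and 187 CPM, a ratio of 0.05 (-0.25 to 0.35). Transitional-like over AT2-like nuclei thus gave 0.29 (0.11 to 0.47) in the library labelled CKO and -0.41 (-0.65 to -0.17) in control. The difference between these was not tested, and with no filter on nuclei they were -0.028 and -0.088. Pola1 was lower in transitional-like nuclei of both libraries, with 32.9 CPM against 48.2 CPM in AT2-like nuclei for the library labelled CKO and 36.4 CPM against 73.3 CPM in control, and without it the ratio in the library labelled CKO was 0.48. Mcm6 was at 24.3 CPM in transitional-like nuclei for the library labelled CKO and 11.4 CPM in those of control, and at 16.3 and 19.3 CPM in AT2-like nuclei. Mcm7 was higher in transitional-like nuclei of both libraries, with 26.6 CPM (46 UMIs) against 9.44 CPM (29 UMIs) in AT2-like nuclei for the library labelled CKO and 23.9 CPM (21 UMIs) against 8.85 CPM (39 UMIs) in control.

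Mitosis RNA by state rested in part on very few nuclei. The mitosis sum was 77.8 CPM in the library labelled CKO and 91.9 CPM in control in AT2-like nuclei (log2 ratio -0.24, interval -0.48 to -0.01), 86.1 and 175 CPM in transitional-like nuclei (-1.02, -1.36 to -0.69), and 138 and 145 CPM in AT1-like nuclei (-0.07, -0.41 to 0.28). Of the 154 mitosis UMIs in control transitional-like nuclei, 72 came from 1 nucleus that held 16 of the 17 members. Without the nucleus richest in mitosis RNA in each class and library, the transitional-like sums were 81.9 CPM in the library labelled CKO and 94.3 CPM in control, a ratio of -0.20. The AT1-like sums were 103 and 80.5 CPM without such a nucleus, and the AT2-like sums 69.8 and 83.8 CPM. In the library labelled CKO the AT1-like sum stayed above the AT2-like one without those nuclei (103 against 69.8 CPM), while in control it did not (80.5 against 83.8 CPM). Cenpf was at 21.6 CPM (40 UMIs) in AT1-like and 5.21 CPM (16 UMIs) in AT2-like nuclei of the library labelled CKO. In control it was at 19.4 CPM (13 UMIs) and 7.03 CPM (31 UMIs). Top2a was at 17.3 CPM (32 UMIs) in AT1-like and 6.51 CPM (20 UMIs) in AT2-like nuclei of the library labelled CKO. In control it was at 19.4 CPM (13 UMIs) and 7.03 CPM (31 UMIs). Of the AT1-like mitosis UMIs, 1 nucleus held 67 of 256 in the library labelled CKO and 44 of 97 in control. The part of such nuclei in the Cenpf and Top2a values was not tested.

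Replication and mitosis RNA was higher in T and NK-like nuclei than in alveolar nuclei, but not in every immune type. In the library labelled CKO the 347 T and NK-like nuclei held 727 CPM of replication RNA and 1059.8 CPM of mitosis RNA, 3.46-fold and 10.95-fold the levels of alveolar nuclei (log2 1.79, 1.65 to 1.93, and 3.45, 3.30 to 3.60). The 57 T and NK-like nuclei of control held 503 CPM and 476 CPM, 2.07-fold and 4.33-fold the alveolar levels, with 21 of their 53 mitosis UMIs in 1 nucleus. So mitosis RNA stood further above the alveolar level than replication RNA did in both libraries. In the library labelled CKO, all 15 mitosis members with at least 20 UMIs over both classes were at least 2-fold higher in T and NK-like than in alveolar nuclei, as were 13 of 17 replication members, against 12.7% of 12837 genes measured.

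Kif11 showed the largest ratio, with 87 UMIs (109.6 CPM) in T and NK-like nuclei and 29 UMIs (4.36 CPM) in alveolar nuclei, 25.2-fold (log2 interval 4.03 to 5.31). Knl1 was at 121 CPM in T and NK-like and 6.46 CPM in alveolar nuclei (18.7-fold), Top2a at 165 and 9.77 CPM (16.9-fold) and Mki67 at 142 and 9.77 CPM (14.6-fold). Ccnb2 had the smallest mitosis ratio, 3.41-fold, from 13 UMIs in T and NK-like and 32 in alveolar nuclei. Among replication members Uhrf1 (6.86-fold), Rrm2 (6.71-fold) and Hells (5.34-fold) were highest, while Tyms (1.68-fold), Gins2 (1.63-fold), Mcm2 (1.54-fold) and Mcm7 (1.34-fold) stayed under 2-fold. The helicase loader Cdc6 was at 8.82 CPM in T and NK-like and 1.95 CPM in alveolar nuclei, from 7 and 13 UMIs.

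Other immune types ranged widely. Macrophage and monocyte-like nuclei held 303 CPM of replication and 321 CPM of mitosis RNA in the library labelled CKO (388 nuclei) and 218 and 344 CPM in control (31 nuclei). B-lineage nuclei of the library labelled CKO held 971 CPM of mitosis RNA, but 66 of their 133 mitosis UMIs came from 1 of 61 nuclei. Neutrophil-like nuclei, a type that does not divide in tissue, held 231 CPM of replication RNA and 89.6 CPM of mitosis RNA and serve as the background level. Taken over all alveolar states, the sums of that library did not differ from the neutrophil-like sums beyond counting error. The log2 ratios were -0.14 (-0.36 to 0.09) for replication and 0.11 (-0.24 to 0.48) for mitosis. Of the 74 neutrophil-like mitosis UMIs, 21 came from 1 nucleus. Without the richest nucleus of each, mitosis levels were 64.9 CPM in neutrophil-like and 86.9 CPM in alveolar nuclei. AT1-like nuclei alone held 138 CPM, and 103 CPM without their richest nucleus. T and NK-like nuclei lay 11.8-fold above neutrophil-like nuclei in mitosis RNA and 3.14-fold above them in replication RNA.

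**Figure D2:**
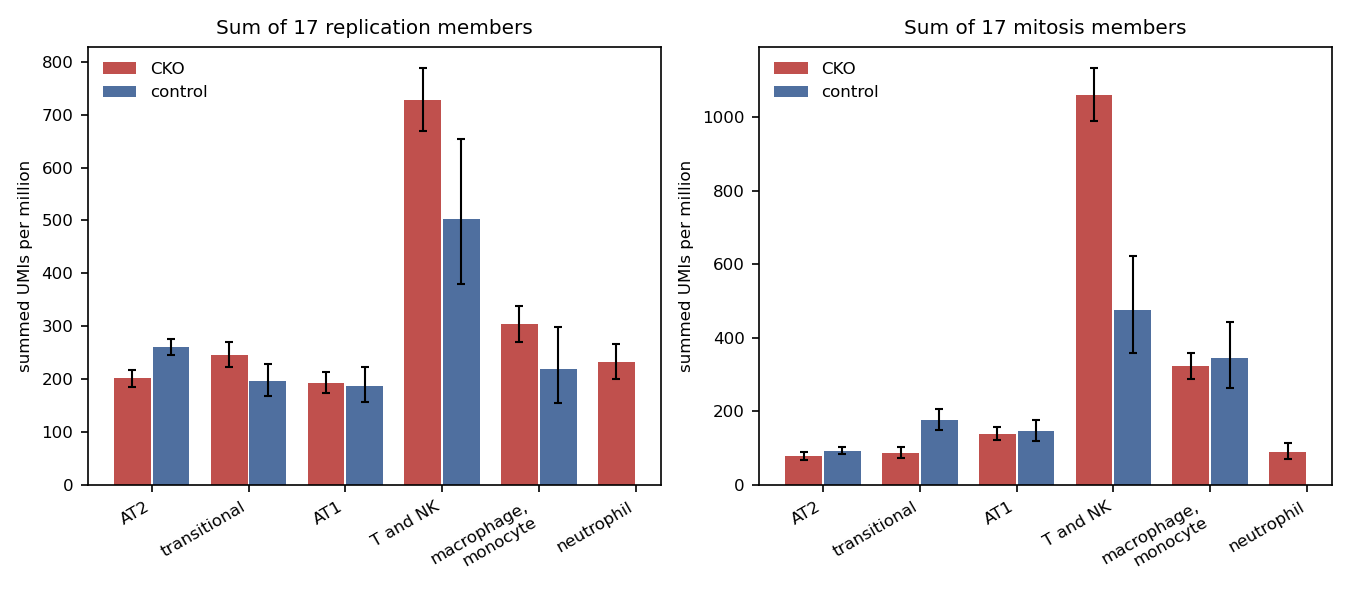
Summed CPM of the 17 replication members and of the 17 mitosis members per class of nuclei, for the library labelled CKO and for control, for classes with at least 30 nuclei in a library, with Poisson 95% intervals. Replication sums of alveolar states and neutrophil-like nuclei lie at similar heights. Mitosis sums of AT1-like nuclei (138 CPM in the library labelled CKO, 145 CPM in control) and of control transitional-like nuclei (175 CPM) lie above the neutrophil-like 89.6 CPM. These higher sums rest in part on single nuclei. T and NK-like nuclei stand above them, with 1059.8 CPM of mitosis RNA in the library labelled CKO and 476 CPM in control.

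Few alveolar nuclei held UMIs of several mitosis members. At least 1 mitosis UMI was seen in 308 of 2318 alveolar nuclei (13.3%) of the library labelled CKO. In control it was seen in 252 of 2049 (12.3%). UMIs of at least 3 different mitosis members were found in 19 of 2318 alveolar nuclei (0.82%, Clopper-Pearson interval 0.49 to 1.28) of the library labelled CKO and 23 of 2049 (1.12%, 0.71 to 1.68) of control. With at least 1000 UMIs per nucleus the shares were 0.88% (0.52 to 1.38) and 1.86% (1.17 to 2.80), and without the mitochondrial limit 0.88% (0.61 to 1.22) and 1.42% (1.15 to 1.73). The 19 nuclei of the library labelled CKO were 8 AT2-like, 4 transitional-like and 7 AT1-like nuclei, and the 23 of control were 18, 3 and 2. In T and NK-like nuclei the share was 12.97% (9.62 to 16.97) in the library labelled CKO and 7.02% (1.945 to 17.004) in control, and for macrophages and monocytes 4.90% (2.97 to 7.54) and 19.4% (7.45 to 37.5). Neutrophil-like nuclei gave 0.61% (0.13 to 1.78). Their median of 1017 UMIs was below the 2662.5 and 2106 of alveolar nuclei. With every nucleus thinned to 1000 UMIs and at least 2 members asked for, alveolar shares were 0.76% and 0.91%, the neutrophil-like share 1.29% (3 of 232 nuclei, 0.27 to 3.73, with 259 shallower nuclei left out) and the T and NK-like shares 15.6% and 11.8%. Macrophage and monocyte-like nuclei, thinned in the same way, gave 4.18% (14 of 335 nuclei) in the library labelled CKO. In control they gave 0 of 24 nuclei (0 to 14.2%), from a class with a median of 4182 UMIs. The alveolar shares were thus not shown to be above the thinly measured neutrophil-like share, while that of T and NK-like nuclei of the library labelled CKO (11.5 to 20.6) was above it.

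**Figure D3:**
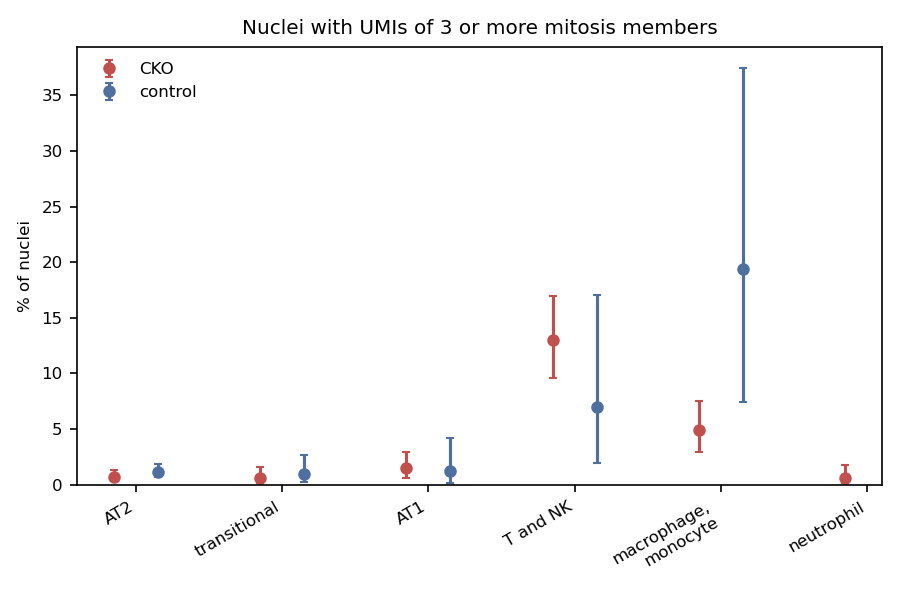
Percent of nuclei with UMIs of at least 3 mitosis members, per class, for the library labelled CKO and for control, with Clopper-Pearson 95% intervals. The alveolar states lie near 1% in both libraries, with 12.97% of T and NK-like nuclei in the library labelled CKO, against 7.02% in control.

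The members were not scattered evenly over alveolar nuclei. For each gene, the share of its UMIs was taken in alveolar nuclei with at least 3 other mitosis members. Over the mitosis members these shares added up to 41.8% of 644 UMIs in the library labelled CKO and 51.7% of 656 UMIs in control. For the replication members they were 7.64% of 1400 UMIs and 8.85% of 1447 UMIs, although those nuclei held 1.29% of all alveolar UMIs in the library labelled CKO, against 2.84% in control. Cenpe had 60.0% of its UMIs there in the library labelled CKO, against 86.0% in control, Cdk1 60.0% and 63.6%, Top2a 60.0% and 60.4%, and Kif11 58.6% and 70.0%. All of these genes act in mitosis itself, as do Bub1b, Ccnb2, Kif20b and Nusap1, which were spread more widely.

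Some members lay far from the median of their group. Bub1b had 16.7% of its UMIs in such nuclei in the library labelled CKO, against 10.3% in control, and Ccnb2 had 25.0% and 9.09%, against medians over mitosis members of 41.7% and 59.0% and over replication members of 5.68% and 6.67%. Kif20b, at 15.9% and 37.8%, and Nusap1, at 32.3% and 24.4%, were spread widely too. Rrm2 went the other way, with 60.0% of 15 UMIs in the library labelled CKO and 50% of 8 UMIs in control. Uhrf1 had 31.8% and 10.7%, and Tyms 13.7% and 20.3%. Slbp had 1.69% and 5.96%, Pcna 6.88% and 4.29%, and Gins2 had none of its 17 UMIs in such nuclei in control.

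**Figure D4:**
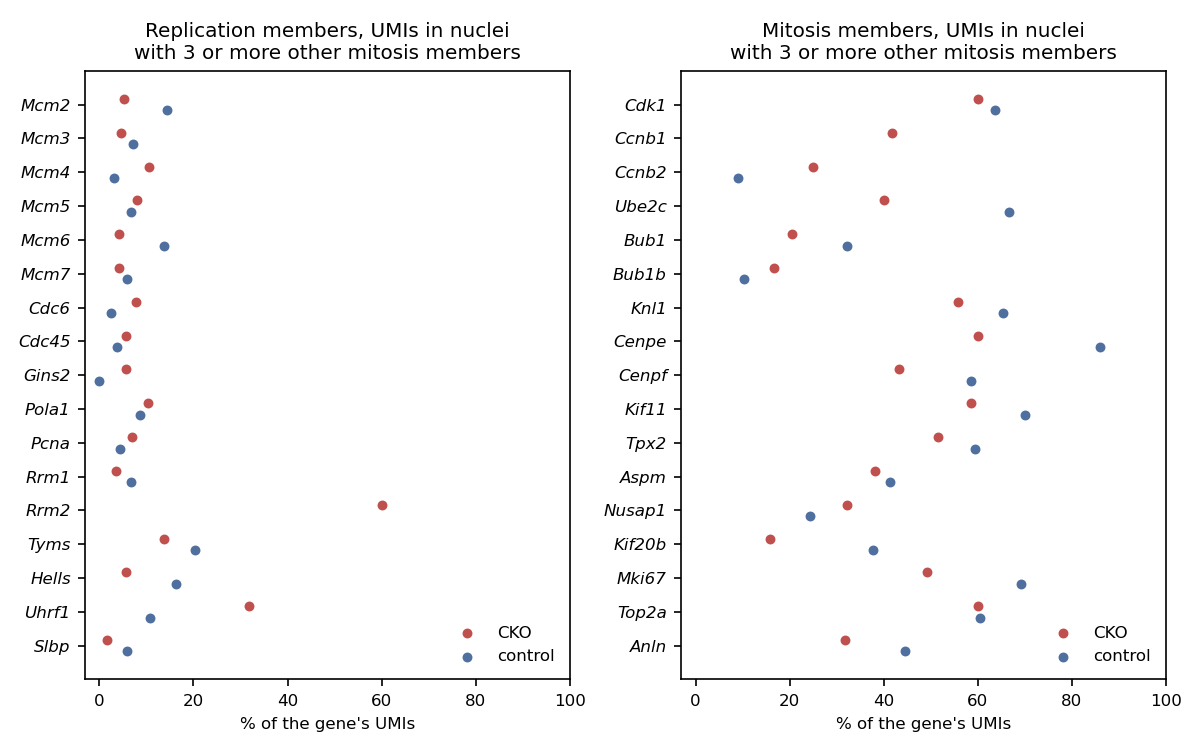
Percent of each gene's UMIs that lay in alveolar nuclei with UMIs of at least 3 other mitosis members, for the library labelled CKO and for control, for genes with at least 10 UMIs in a library. Replication members lie mostly at the left, with Rrm2 at 60.0% in the library labelled CKO, and most mitosis members lie further right.

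Replication RNA was higher in the nuclei with at least 3 mitosis members, although it was not used to pick them. Alveolar nuclei with at least 3 mitosis members held 1251 CPM of replication RNA, against 197 CPM in the other alveolar nuclei of the library labelled CKO, 6.36-fold (log2 2.67, 2.37 to 2.95). In control they held 756 CPM, against 228 CPM in the others, 3.32-fold (log2 1.73, 1.46 to 1.99). At least 3 replication members were seen in 11 of 19 such nuclei of the library labelled CKO and 11 of 23 of control. In the other nuclei the shares were 2.44% and 3.90%. Unlike CPM, these shares do not allow for the greater depth of nuclei with at least 3 mitosis members (medians of 4330 and 7445 UMIs, against 2649 and 2078.5). In the library labelled CKO the same CPM ratio was 4.64-fold over T and NK-like and 3.54-fold over macrophage and monocyte-like nuclei.

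Over both libraries, 14 of 17 replication members were at least 2-fold higher in alveolar nuclei with at least 3 mitosis members than in the others, against 10.5% of the 13647 genes measured. Rrm2 had 13 UMIs in the 42 nuclei with at least 3 mitosis members and 10 in all others, 63.0-fold (log2 interval 4.67 to 7.33). Uhrf1 was 12.1-fold higher (10 and 40 UMIs), Tyms 9.40-fold (25 and 129 UMIs) and Hells 6.75-fold (28 and 201 UMIs). Pola1 was 5.04-fold higher (63 and 606 UMIs), Mcm6 4.60-fold and Mcm4 4.09-fold. Slbp (1.84-fold), Gins2 and Cdc6 (both 1.90-fold, from 2 and 51 UMIs each) stayed under 2-fold. Of such nuclei, 3 of 19 in the library labelled CKO and 5 of 23 in control had no replication UMI.

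The AT2 marker sum of these nuclei was 11766 CPM, against 12517 CPM in the other alveolar nuclei in the library labelled CKO, while in control it was 10256 CPM against 9725 CPM. As AT2 marker RNA was also at 10163 CPM in neutrophil-like nuclei of the library labelled CKO and at 8852 CPM in T and NK-like nuclei of control, these sums do not show the type of the nuclei. T and NK marker UMIs were 0 in those of the library labelled CKO and 2 in those of control. Neutrophil markers gave 21 UMIs (246 CPM) against 120 CPM in the other nuclei of the library labelled CKO, and 0 UMIs in control. Doublets were in effect not removed, and their part in these nuclei was not tested.

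Other genes followed the mitosis members into the same nuclei. The 12 highest by ratio were Kif4, Cdca2, Racgap1, Kif23, Efcab11, Ect2, Kif15, Cit, Cenpp, Ccdc18, Sdk1 and Stmn1, ranging from 73.7-fold for Kif4 to 10.8-fold for Stmn1. Kif4, a motor that shapes mitotic chromosomes, had 38 UMIs in the 42 nuclei and 25 in all other alveolar nuclei. Racgap1 (40.2-fold) and Kif23 (35.0-fold) form the complex that gathers the central spindle, and Ect2 (27.5-fold) and Cit (25.4-fold) act with them at the cleavage furrow. Stmn1 takes microtubules apart, and Cenpp belongs to the kinetochore. Sdk1, an adhesion gene, had the most UMIs, 99 in the 42 nuclei and 419 in the others. As these genes were picked by this very ratio, the values are a description.

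The wider cell cycle lists held genes on both sides. Of 49 other replication genes, 48 were measured, with a median log2 ratio of 0.36, 6 at least 2-fold higher and 5 at least 2-fold lower in alveolar nuclei of the library labelled CKO, against 17.6% and 3.11% of all genes. Tk1, thymidine kinase, had 70 UMIs (10.5 CPM) in the library labelled CKO and 16 (2.69 CPM) in control, and Dut, the dUTPase, had 50 and 11 UMIs. At the other end Dtl, which marks Pcna-bound proteins for degradation, had 19 UMIs (2.86 CPM) in the library labelled CKO and 76 (12.8 CPM) in control, and Mcm10, a factor of the starting helicase, had 92 and 213 UMIs. The other 3 lower genes, named after their values were seen, were Exo1, Orc1 and Pole, with log2 ratios of -1.53, -1.22 and -1.06. Tk1, Dut, Dtl and Mcm10 were named as the ends of their list, so their sides are a description. Of all 13647 genes measured, 10637 lay above 0.

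Of 60 other mitosis genes, 44 were measured, with a median of -0.16, 1 at least 2-fold higher and 1 at least 2-fold lower, where 17.6% and 3.11% of all genes were. The higher one, named after its value was seen, was Spc25 of the kinetochore, with 35 UMIs in the library labelled CKO, against 15 in control (1.06, interval 0.15 to 2.04). By the interval bound nearest 0, Bub3, a checkpoint protein, was highest, at 28.7 CPM in the library labelled CKO and 15.4 CPM in control, and Pttg1, securin, at 18.6 and 11.4 CPM. Racgap1 was at 4.06 and 8.06 CPM and Kif4 at 3.31 and 6.88 CPM. Cyclins, their kinases and E2F factors had a median of 0.37 (21 measured of 25, 4 higher and 1 lower by 2-fold, a share of higher genes near the 17.6% of all genes). Ccnd1, cyclin D1, was at 234 CPM in the library labelled CKO and 101 CPM in control, and E2f5, a repressing E2F factor, at 26.0 and 10.7 CPM. Cdk6, a partner of cyclin D1, was at 56.2 and 66.0 CPM, and E2f1 had 9 and 18 UMIs. E2f4 and Cdc25a, named after their values were seen, were the other higher genes, with log2 ratios of 1.22 and 1.18. Cell cycle inhibitors had a median of 0.33 (16 measured of 17, 3 higher and 0 lower by 2-fold, again near the 17.6% of all genes). Among them Cdkn2b, the inhibitor p15, was at 18.6 CPM in the library labelled CKO and 5.20 CPM in control, Ccng1, a p53 target, at 164 and 72.8 CPM, Btg2 at 249 and 303 CPM and Btg1 at 195 and 194 CPM. Cdkn2a, also named after its value was seen, had 16 and 4 UMIs. All 4 medians lay below the 0.47 of all genes measured.

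Promoters of the members lay in open chromatin in both libraries. Each of the 34 genes had a peak within 1000 bases of its start in both libraries, where 56.4% of 31053 genes had one in the library labelled CKO, against 55.2% in control. Peak counts near the replication members in alveolar nuclei were 1737 per 1000000 promoter counts for the library labelled CKO and 1727 for control, a log2 ratio of 0.01 (-0.04 to 0.05). Near the mitosis members they were 1279 in the library labelled CKO, against 1229 in control, a ratio of 0.06 (0.01 to 0.11). Peaks covered 16.0 kb near replication members in the library labelled CKO and 16.5 kb in control, and 15.8 and 15.4 kb near mitosis members. Scaled to all peak counts, the ratios were -0.15 and -0.10.

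Single promoters differed in both directions, not always that of their RNA. At Cdc6, whose RNA was lower in the library labelled CKO, promoter counts were 393 in that library and 247 in control, a log2 ratio of 0.57 (0.34 to 0.81). The Mki67 promoter, with the CHR letters shown above, had 424 counts in the library labelled CKO, against 573 in control (-0.53, interval -0.72 to -0.35), and the Top2a promoter had 465 and 288 counts (0.59, interval 0.38 to 0.81). Ccnb2 had 182 and 96 counts (0.82), Tyms 171 and 104 (0.62), Pcna 607 and 714 (-0.33) and Uhrf1 470 and 621 (-0.50). The Mcm6 promoter, with its E2F letters, had 381 counts in the library labelled CKO, against 398 in control (-0.16, interval -0.37 to 0.04), and its RNA was level as well.

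Between cell types, summed promoter counts differed less than summed RNA. In the library labelled CKO, promoter counts in T and NK-like nuclei were 1.15-fold the alveolar level near replication members and 1.25-fold near mitosis members, where the RNA sums were 3.46-fold and 10.95-fold higher. Against neutrophil-like nuclei the promoter ratios were 1.15-fold for both groups. Kif11, with 25.2-fold more RNA in T and NK-like nuclei, had a promoter log2 ratio of 0.41 (0.06 to 0.74), and Mki67, with 14.6-fold more RNA, had -0.13 (-0.54 to 0.26). The highest promoter ratios were those of Bub1b (0.86, interval 0.40 to 1.30), Ccnb2 (0.86, interval 0.39 to 1.31) and Aspm (0.76, interval 0.40 to 1.11).

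**Figure D5:**
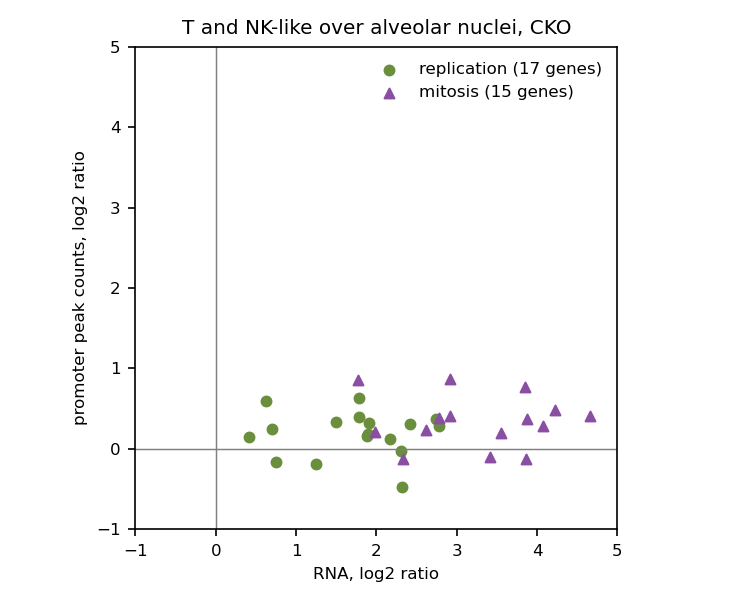
Log2 ratio of T and NK-like over alveolar nuclei of the library labelled CKO for RNA and for peak counts within 1000 bases of the gene start, one point per gene with at least 20 UMIs over both classes. RNA ratios reach 4.65 for Kif11, while promoter ratios stay between -0.47 for Pola1 and 0.86 for Bub1b.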

How the data were processed

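Nuclear RNA and open chromatin were measured in 2 joint libraries, 1 per genotype. Per the file headers and the submitters' processing notes, the authors made the deposited matrices with Cell Ranger ARC 2.0.1, and Seurat 4.1.0 and Signac 1.6.0 are also named, with no step. The deposited values are raw counts, UMIs per gene and transposition counts per peak. The peaks were called separately in each library, and their width near a gene can differ. GRCm39 and GRCm38 both stand in these notes, without a stated role. Of 25200 genes matched to RefSeq, 59.6% had a start in the files within 100 bases of the GRCm38 one, so that build was used.

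Nuclei were kept by RNA (500 to 25000 UMIs, 300 or more genes, mitochondrial UMIs under 20%) and by chromatin (1000 to 100000 peak counts). Scrublet (scanpy 1.11.5, expected rate 0.08) called 0 nuclei of the library labelled CKO and 12 of control, which amounts to no removal of doublets. Clustering took the libraries jointly, without integration (2000 variable genes, 30 components, 15 neighbours, Leiden resolution 0.6, leidenalg 0.10.2, igraph 0.11.9), leaving out the 34 genes and the other cell cycle lists. Clusters were named from marker lists with at least 3 detected markers.

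UMIs were summed per class and library. Intervals are at 95% and cover counting error only. They are exact conditional-binomial for ratios, Clopper-Pearson for shares and Poisson for sums. Genes with at least 20 UMIs over the groups compared count as measured. The ratio calculation was checked on simulated Poisson counts, which have the spread that the intervals assume. The check does not show how well the intervals cover sums that rest on single nuclei. With 1 library per genotype no p-value is given. The genes named by rule are all 34 members, the 2 highest and 2 lowest of each wider list by the interval bound nearest 0, and 12 other genes by ratio with at least 30 UMIs in nuclei with 3 mitosis members. Further genes of the wider lists are marked in the text as named after their values were seen. Members, lists and rules were chosen with earlier results of these data known. Promoter counts are those of peaks within 1000 bases of a gene start, per 1000000 counts in all such peaks. Alternatives set before this work numbered 19, and 1 was added after the values were seen. The work used pandas 2.3.3, matplotlib 3.10.9, scipy 1.17.1, numpy 2.4.6 and Python 3.11.15.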

Additional observations from a re-analysis of the deposited data

Results flagged for a closer look

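The replication sum differed between the libraries in opposite directions in 2 alveolar states, with a log2 ratio of the library labelled CKO over control of 0.32 in transitional-like nuclei and -0.38 in AT2-like nuclei. The difference between the states was not tested. Barcodes at or over the mitochondrial limit, which were used above only in the alternatives without a mitochondrial limit or a filter, also held RNA of the members, and more of it in the library labelled CKO. Their replication sum was 260.01 CPM in 4365 barcodes of the library labelled CKO and 233 CPM in 8407 control barcodes, and their mitosis sum 168 CPM and 98.4 CPM. Nuclei with at least 3 mitosis members made up 2.22% (1.81 to 2.70) of these barcodes in the library labelled CKO and 1.32% (1.09 to 1.59) in control. These barcodes were not sorted into classes here, and immune nuclei are more frequent among the kept nuclei of the library labelled CKO.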

How the results depend on the processing

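Every alternative set at the start was run, and 1 more, which leaves out the nucleus richest in the summed RNA per class and library, was chosen after seeing the data. Of 136 alternative values of the 12 main results, 101 stayed within the 95% interval of the value reported, 24 left it and 11 turned sign. No paired analysis was possible because each genotype has 1 library. The thin counts of single genes and the single library per genotype limit what these data can show, and without a mitochondrial limit or a filter no AT1-like class was found.

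The ratio of transitional-like over AT2-like nuclei was least stable. For mitosis in control (0.93 as reported) it was -0.016 without the mitochondrial limit, -0.34 with no filter, -1.41 with at least 1000 UMIs, -1.22 with cycle genes kept in clustering, -0.083 without the top 5% of nuclei by UMIs, -0.22 without nuclei with 3 mitosis members, 1.26 with Scrublet calls kept, 1.80 without clusters of 1 library and 0.17 without the richest nuclei. For mitosis in the library labelled CKO (0.15) it was 0.60 with Scrublet calls kept, 1.01 at resolution 1.0 and 0.78 without nuclei with 3 mitosis members. For replication it was -0.028 with no filter and 0.48 without Pola1 in the library labelled CKO (0.29), and -0.10, -0.088 and -0.17 in control (-0.41) without the mitochondrial limit, with no filter and with Scrublet calls kept.

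Over alveolar nuclei, the ratio of the library labelled CKO to control was 0.0059 for replication and -0.50 for mitosis without clusters of 1 library, -0.65 and -0.63 with median-of-ratios scaling, -0.087 and -0.41 with control weighted to the class makeup of the library labelled CKO, and 0.14 for mitosis without nuclei with 3 mitosis members. In the library labelled CKO, immune over alveolar nuclei (0.92 and 2.32) gave 0.80 for replication without Pola1, and 0.47 and 0.76 without nuclei with 3 mitosis members. Shares of nuclei were 0.88% in the library labelled CKO, against 1.86% in control, with at least 1000 UMIs, 1.86% and 2.25% with 2 members, and 0.52% and 0.63% with 5 members. Promoter ratios were 0.12 for replication with a window of 500 bases, -0.15 and -0.10 scaled to all peaks, and -0.0038 for mitosis without clusters of 1 library.

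Within classes, the ratio of the library labelled CKO over control turned for mitosis in transitional-like nuclei to 0.31 with no filter, 0.83 with at least 1000 UMIs, 0.79 with cycle genes kept and 0.74 without nuclei with 3 mitosis members, for mitosis in AT2-like nuclei to 0.64 and for Pcna to 0.14 without clusters of 1 library, and for replication in transitional-like nuclei to -0.13 with no filter. The cause of these changes was not tested.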
